A study of Mus musculus with 4 samples.

Results

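Fos summits at the ends of long non-coding RNA (lncRNA) genes, away from protein-coding genes, were examined in mouse colonic epithelium. A summit is the highest point of a called peak. Summits on chromosomes 1 to 19 were taken when they lay within 500 bp of the start or end of a lncRNA gene and more than 2 kb from every boundary of a protein-coding gene. In all, 3668 of 176597 summits (2.08%) met the rule, in 2687 called regions and at 2461 lncRNA genes. The series profiled Fos by CUT&Tag, in which Tn5 transposase is brought by an antibody to the protein's sites in nuclei and inserts adapters there. Of its 4 libraries of wild-type (WT) colon, 2 came from healthy controls. The other 2 came from mice that had recovered from colitis after 1 to 1.5% dextran sodium sulfate (DSS) in the drinking water for 3 cycles. A cycle was 7 days on DSS followed by 10 days off it, and tissue was taken 22 days after the end of the final cycle. The epithelium was loosened in EDTA and scraped off. All libraries carried 1 batch label, and their labels state no age.

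The processed data were 1 peak list for the whole series, with no value per library. Healthy and recovered colon were therefore not compared, no value below has a replicate error, and no difference was tested. Intervals on shares are 95% Wilson intervals and those on fragment numbers 95% Poisson intervals, for counting error only. No library without the Fos antibody was used here, so the share of signal from open chromatin cut by Tn5 alone was not measured. Of 8 marker genes of colonic epithelium, 8 had a summit within 500 bp of a boundary, against 0 of 2 endothelial markers. The leukocyte markers Ptprc, Cd3e and Itgam had none. Of 3 fibroblast and 2 neuronal markers, 1 each had a summit, with folds of 4.33 and 3.37. For comparison, 12142 of 20665 protein-coding genes had a summit within 500 bp of a boundary (58.8%, 58.1 to 59.4). With that share and so few markers per cell type, these counts say little about the purity of the epithelium.

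Fos is a leucine zipper protein that pairs with Jun proteins to form AP-1, a transcription factor induced by growth signals, stress and tissue injury. AP-1 binds the heptamer TGACTCA, whose complementary strand reads TGAGTCA. LncRNA genes are transcribed by RNA polymerase II from promoters of their own, into RNAs that are not translated. Many start at DNA that also acts as an enhancer, and others host microRNAs or small nucleolar RNAs (snoRNAs) in their introns. Transcript levels of these genes were not measured in this series.

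The following promoters from RefSeq (build GRCm38.p6) carry some of the strongest signal and hold the AP-1 heptamer, shown in capitals on either strand. Each runs 5′ to 3′ along the gene, from 250 bases before its start to 50 after. Gm32861 lies on the minus strand (chr7:110288349-110288648), Gm40491 on the minus strand (chr12:86833714-86834013), Gm13415 on the plus strand (chr2:24440143-24440442) and Ttc39aos1 on the minus strand (chr4:109406208-109406507).
Gm32861: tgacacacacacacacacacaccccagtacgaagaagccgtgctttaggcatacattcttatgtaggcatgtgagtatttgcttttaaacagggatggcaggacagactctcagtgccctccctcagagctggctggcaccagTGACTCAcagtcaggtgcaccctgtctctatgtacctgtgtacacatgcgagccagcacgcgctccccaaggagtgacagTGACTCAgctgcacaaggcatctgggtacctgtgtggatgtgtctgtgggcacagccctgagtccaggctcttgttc
Gm40491: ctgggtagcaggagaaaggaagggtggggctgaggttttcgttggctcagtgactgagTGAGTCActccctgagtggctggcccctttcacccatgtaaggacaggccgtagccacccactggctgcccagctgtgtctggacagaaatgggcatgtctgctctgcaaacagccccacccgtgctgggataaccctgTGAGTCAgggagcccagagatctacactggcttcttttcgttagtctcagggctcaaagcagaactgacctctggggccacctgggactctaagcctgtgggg
Gm13415: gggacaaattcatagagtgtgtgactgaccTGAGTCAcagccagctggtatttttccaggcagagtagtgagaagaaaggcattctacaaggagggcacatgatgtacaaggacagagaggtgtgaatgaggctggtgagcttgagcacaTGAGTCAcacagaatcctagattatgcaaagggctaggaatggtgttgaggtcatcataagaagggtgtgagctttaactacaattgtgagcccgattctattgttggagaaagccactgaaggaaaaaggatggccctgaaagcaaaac
Ttc39aos1: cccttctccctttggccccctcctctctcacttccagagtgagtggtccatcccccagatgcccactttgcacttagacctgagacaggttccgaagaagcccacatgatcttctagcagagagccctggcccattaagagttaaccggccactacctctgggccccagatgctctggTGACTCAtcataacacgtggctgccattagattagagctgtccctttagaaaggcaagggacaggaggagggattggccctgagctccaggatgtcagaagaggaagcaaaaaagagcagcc
The strongest summit in each of these promoters lay 18 bp from the centre of the nearest heptamer in Gm32861, 9 bp in Gm40491, 37 bp in Gm13415 and 57 bp in Ttc39aos1. Gm32861, Gm40491 and Gm13415 hold 2 heptamers each and Ttc39aos1 holds 1.

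Other member promoters lack the heptamer in their 300 bases and are shown for contrast. All were chosen after their values were seen. They belong to Mir22hg (plus strand, chr11:75461289-75461588), the host gene of miR-22, to Dleu2 (minus strand, chr14:61682324-61682623), the host of miR-15a and miR-16-1, to Snhg15 (minus strand, chr11:6528711-6529010), a snoRNA host gene, to Gm38516 (plus strand, chr15:56765151-56765450) and to Gm40093 (minus strand, chr3:93597455-93597754). Capitals in Snhg15 mark TGACGTCA, the cAMP response element bound by CREB, ATF and some AP-1 dimers, the only such match among the 5.
Mir22hg: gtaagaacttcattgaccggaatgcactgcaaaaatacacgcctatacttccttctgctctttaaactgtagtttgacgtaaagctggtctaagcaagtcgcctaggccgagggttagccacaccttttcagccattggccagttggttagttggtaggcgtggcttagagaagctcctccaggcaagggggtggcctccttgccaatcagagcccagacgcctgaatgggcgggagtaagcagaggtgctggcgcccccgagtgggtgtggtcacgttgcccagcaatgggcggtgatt
Dleu2: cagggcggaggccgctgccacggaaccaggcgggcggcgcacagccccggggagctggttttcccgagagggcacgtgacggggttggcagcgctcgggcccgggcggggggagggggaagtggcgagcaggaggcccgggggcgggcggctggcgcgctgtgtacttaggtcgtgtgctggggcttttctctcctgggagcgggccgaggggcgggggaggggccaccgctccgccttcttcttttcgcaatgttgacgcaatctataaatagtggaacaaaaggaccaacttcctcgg
Snhg15: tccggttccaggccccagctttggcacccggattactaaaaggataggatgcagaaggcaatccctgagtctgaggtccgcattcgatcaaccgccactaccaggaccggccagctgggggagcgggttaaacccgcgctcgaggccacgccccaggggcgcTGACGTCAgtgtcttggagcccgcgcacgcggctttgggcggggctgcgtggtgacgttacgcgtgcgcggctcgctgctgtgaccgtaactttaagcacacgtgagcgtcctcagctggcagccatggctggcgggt
Gm38516: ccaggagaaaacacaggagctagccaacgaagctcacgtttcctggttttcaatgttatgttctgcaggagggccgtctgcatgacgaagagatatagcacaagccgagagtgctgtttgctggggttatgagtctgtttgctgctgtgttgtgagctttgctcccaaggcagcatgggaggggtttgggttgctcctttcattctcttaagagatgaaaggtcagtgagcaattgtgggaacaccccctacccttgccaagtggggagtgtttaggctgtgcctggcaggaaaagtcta
Gm40093: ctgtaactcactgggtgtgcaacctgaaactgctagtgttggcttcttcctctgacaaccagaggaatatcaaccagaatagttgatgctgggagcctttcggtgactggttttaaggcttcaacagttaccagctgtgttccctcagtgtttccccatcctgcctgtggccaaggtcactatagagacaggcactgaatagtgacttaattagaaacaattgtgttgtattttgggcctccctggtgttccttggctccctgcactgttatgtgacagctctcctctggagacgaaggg
In their 300 bases, Mir22hg, Dleu2 and Snhg15 hold 12, 29 and 29 CpG dinucleotides, and Gm38516 and Gm40093 hold 5 and 2. The promoters of Gm32861, Gm40491, Gm13415 and Ttc39aos1 hold 5, 4, 1 and 3. Strong members without the heptamer in these 300 bases thus include both CpG-rich and CpG-poor promoters. The summits of Gm38516 and Gm40093 lay 45 and 49 bp from the start, inside the gene, where the sequence ends 50 bases after the start. That of Dleu2 lay 231 bp before the start, near the other end of the sequence. Bases beyond the 300 were not searched, so a heptamer close to these summits may have been missed. CpG dinucleotides are scarce in most mouse DNA and dense in the promoters of widely expressed genes.

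LncRNA boundaries drew more Fos summits than their bases would give, though fewer than protein-coding boundaries. The windows of the rule made up 0.870% of the bases of chromosomes 1 to 19 and held 2.08% of summits, a 2.39-fold enrichment, or 173 summits per Mb. Windows of 500 bp around protein-coding boundaries held 11.1% of summits on 1.60% of bases, a 6.92-fold enrichment, or 500.2 per Mb. Bases at neither kind of boundary, here over 500 bp from lncRNA and over 2 kb from protein-coding boundaries, held 56.7 summits per Mb. By gene, 2461 of the 12004 lncRNA genes with any window bases over 2 kb from protein-coding boundaries had a member summit (20.5%, 19.8 to 21.2). Pseudogenes, under the same distance rule, had a summit at 397 of 8749 (4.54%, 4.12 to 4.99). Protein-coding genes, without that rule, had one at 12142 of 20665 (58.8%, 58.1 to 59.4). Likewise without it, lncRNA genes had one at 3703 of 12408 (29.8%, 29.0 to 30.7).

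Summits were more frequent at the start of lncRNA genes than at their end, a split added after seeing the data. The gene table carries no strand, so the strand was read from the RefSeq promoter table, which matched 9291 of the 12408 lncRNA genes. Among windows of 500 bp to each side that lay wholly over 2 kb from protein-coding boundaries, 1360 of 7544 at gene starts held a summit (18.03%, 17.2 to 18.9). At gene ends 683 of 8258 did (8.27%, 7.70 to 8.88), a ratio of start to end of 2.18. For strong summits the ratio was higher, while the gap in percentage points was smaller. Summits with a fold of at least 50 were present in 2.40% of start windows (2.08 to 2.77) and 0.484% of end windows (0.356 to 0.659). Protein-coding genes, whose windows had no distance rule, had a summit at 56.9% of starts (56.1 to 57.6) and 11.0% of ends (10.5 to 11.5). With a fold of at least 50, they had one at 16.1% of starts and 0.869% of ends. Their ends thus lay much nearer to lncRNA ends than their starts did to lncRNA starts.

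Summit density peaked in the 250 bp just before the lncRNA start, at 330 summits per Mb. It was 259 per Mb over the 500 bp outside the start and 254 per Mb over the 500 bp inside it, against 114 and 82.1 per Mb at 5000 to 10000 bp outside and inside. At gene ends the 500 bp outside held 98.4 summits per Mb and the 500 bp inside 117, against 107 and 72.5 per Mb at 5000 to 10000 bp. Outside the end, the density was thus below that farther out, and inside the end it was above it. Both values within 500 bp of the end exceeded the 72.3 per Mb over all bases, as did the 114 and 107 per Mb at 5000 to 10000 bp outside. Inside a gene, only bases up to its midpoint were counted. The inside values at 5000 to 10000 bp therefore came from longer genes only, not from the same set of genes as those within 500 bp. The plot of density by distance shows a narrow peak at starts, and at ends a highest bin of 136 per Mb, 500 to 750 bp inside.

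**Figure D1:**
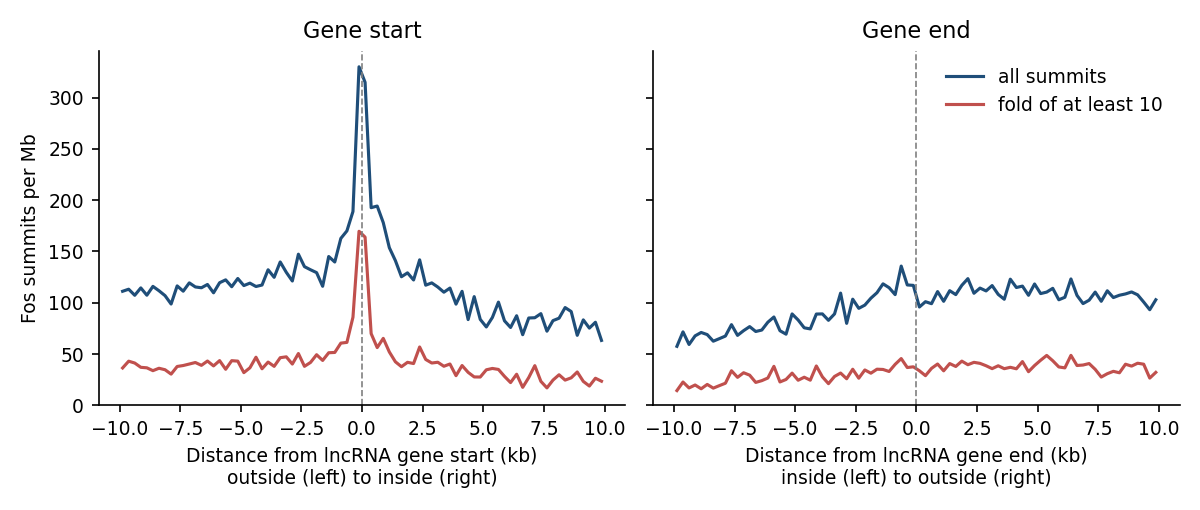
Fos summits per Mb in bins of 250 bp by distance in kb from the start (left) and end (right) of lncRNA genes of known strand, counting only bases over 2 kb from protein-coding boundaries, and inside a gene only up to its midpoint. The blue line gives all summits and the red line those with a fold of at least 10: both peak at the start, where the blue line reaches 330 per Mb, while at the end no bin exceeds 136 per Mb.

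Among 6409 lncRNA genes longer than 2000 bp with both windows counted, 886 had a summit at the start alone (13.8%), 305 at the end alone (4.76%) and 176 at both (2.75%). Of those 176, the start carried the higher fold in 111 (63.1%, 55.7 to 69.8). Where summits themselves were counted, 1917 members lay at a start only, with a median fold of 9.38 (interquartile range 4.81 to 22.4). The 883 members at an end only had a median of 6.73 (4.09 to 13.5). A further 35 lay within reach of both, and 833 belonged to genes without a strand in the promoter table.

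By median fold, member summits were modestly stronger than summits away from boundaries and weaker than those at protein-coding boundaries. Strength is given as the deposited fold enrichment over background, which also yields the number of overlapping fragments. The median member had a fold of 7.94 (interquartile range 4.57 to 18.5) and 32 fragments. Summits within 500 bp of a protein-coding boundary had a median fold of 14.2 and 58 fragments. The 129132 summits at neither boundary, by the distances given above, had 6.25 and 25 fragments. Another 24264 summits, over 500 bp and up to 2 kb from a protein-coding boundary, belong to none of these sets and had a median of 6.25. A fold of at least 10 was reached by 42.0% of members (40.4 to 43.6), against a background of 35.9% of all summits. It was reached by 60.8% (60.2 to 61.5) at protein-coding boundaries and 32.8% (32.5 to 33.0) at neither. A fold of at least 50 was reached by 8.67% of members, against 7.0% of all summits. Among the 1000 highest folds of chromosomes 1 to 19, 30 were members, and among the 100 highest, 7, where members made up 2.08% of all summits. Of these 7, 3 lay in 1 region at AY036118, whose value is uncertain, as described below.

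**Figure D2:**
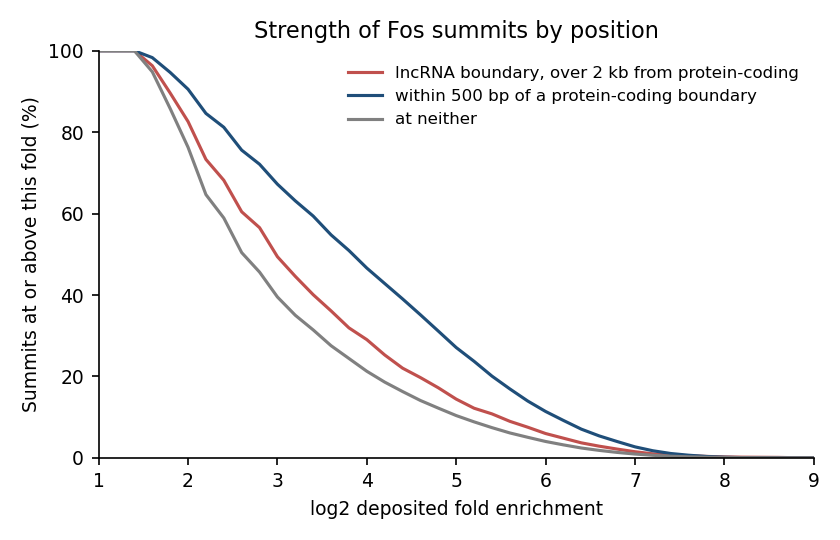
Percent of summits at or above each deposited fold (log2 scale on the x axis) for members (red), summits within 500 bp of a protein-coding boundary (blue) and summits at neither (grey). Neither means over 500 bp from lncRNA and over 2 kb from protein-coding boundaries. The red line lies between the others over most of the range, with medians of 7.94, 14.2 and 6.25, but above both in the far tail from a log2 fold of 7.8 to 8.8. At 8.6 it is at 0.109% (4 members, 3 of them at AY036118), against 0.00512% at protein-coding boundaries and 0.0116% at neither.

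Median strength was alike inside and outside protein-coding genes. The 1241 members inside the span of a protein-coding gene and the 2427 outside any such span both had a median fold of 7.94. Members at 2 to 5 kb, 5 to 20 kb and 20 to 100 kb from the nearest protein-coding boundary had medians of 7.94, 8.18 and 7.94. The 368 members beyond 100 kb had a median of 6.73, against 5.53 for summits at neither boundary at that distance. Shorter genes had a member more often, at 24.3% (22.8 to 25.8) of the 3002 shortest, against 15.8% (14.5 to 17.1) of the 3001 longest. The share of lncRNA genes with a member ran from 15.6% on chromosome 14 to 28.5% on chromosome 19. Most member genes, 1558, had 1 member summit, 619 had 2 and 284 had 3 or more, and 84 summits lay at 2 or more lncRNA genes.

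The strongest members were mostly at the start of little-studied lncRNA genes. Of the 25 genes with the highest folds, from 169.6 upward, 20 had their strongest member at the start, 3 at the end and 2 had no known strand. The strongest summit lay inside a protein-coding gene for 8 of the 25. Of all 3668 members, counted by summit, 1241 lay inside such a gene, a similar share. By position, 1917 of the 3668 lay at a start only, 883 at an end only and 833 had no strand. The highest fold, 509.2 with 2116 fragments (2027 to 2208), lay 151 bp outside the lower boundary of AY036118 (chromosome 17, 39848112 to 39898385), within 2 kb of Rn18s-rs5, a pseudogene of 18S ribosomal RNA. That region was 5970 bp wide with 10 summits, and the other 2 members there had folds of 424.1 and 392.1. Ribosomal RNA genes occur in many near-identical copies, so this value is uncertain: which copy the reads came from was not tested.

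Gm46099 (chromosome 1, 87551061 to 87568319) had the next fold, 418.8, with 1740 fragments, at its start inside Ngef. Gm32861 (chromosome 7, 110285502 to 110288398), whose promoter is printed above, reached 366.8 and 1524 fragments (1448 to 1602) at its start, 5014 bp from Swap70. Its other members had folds of only 14.7 and 3.13, the latter at its end. Gm40491 (chromosome 12, 86831096 to 86833763) reached 334.6 and 1390 fragments at its start, 46742 bp from Irf2bpl. Gm40399 on the same chromosome reached 285.3 at its start, 82726 bp from Arl4a. Its other members had folds of 6.25 and 5.53, and Gm46099 and Gm40491 had no other member.

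The protein-coding genes nearest to these 25 are given by distance alone, and no shared function was tested. Gm38516 (fold 272.5) lay with its summit 70900 bp from Has2, which makes hyaluronan. Fzd10os (246.1) is named for the strand opposite Fzd10, a Wnt receptor gene 21600 bp from the summit. Gm12977 (239.1, at its end) lay inside Rps6ka1, a kinase downstream of ERK. Gm40345 (233.1) lay inside Por, the reductase that supplies cytochrome P450 enzymes. Gm29200 (217.2) lay inside Lama3, a laminin chain of the epithelial basement membrane. The summit of 2410080I02Rik (206.9) lay 6970 bp from Klf9, and that of Gm40093 (196.0) lay 32810 bp from S100a10, which binds annexin A2. Gm19531 (187.9) lay inside Gnb5, 11014 bp from Myo5c, a myosin of secretory epithelia. Gm30785 (178.7) had its summit 24617 bp from Slc22a5, the carnitine transporter.

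The remaining genes of that group had folds from 169.6 to 224.7. Gm27011 lay inside Banp, 2700012I20Rik inside Sin3a and Gm13415 inside Pax8. The nearest protein-coding gene was Cct8l1 for 1700096K18Rik, Etnk1 for Gm31108, Tbc1d16 for Gm11755, Kcnv2 for Gm35438, 4930432M17Rik for A730020M07Rik and Ptp4a1 for Gm28644 and Gm29669. Gm28644 and Gm29669 share 1 summit of fold 169.6 and 704 fragments, at the start of Gm28644 and the end of Gm29669, so they are not independent sites.

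**Figure D3:**
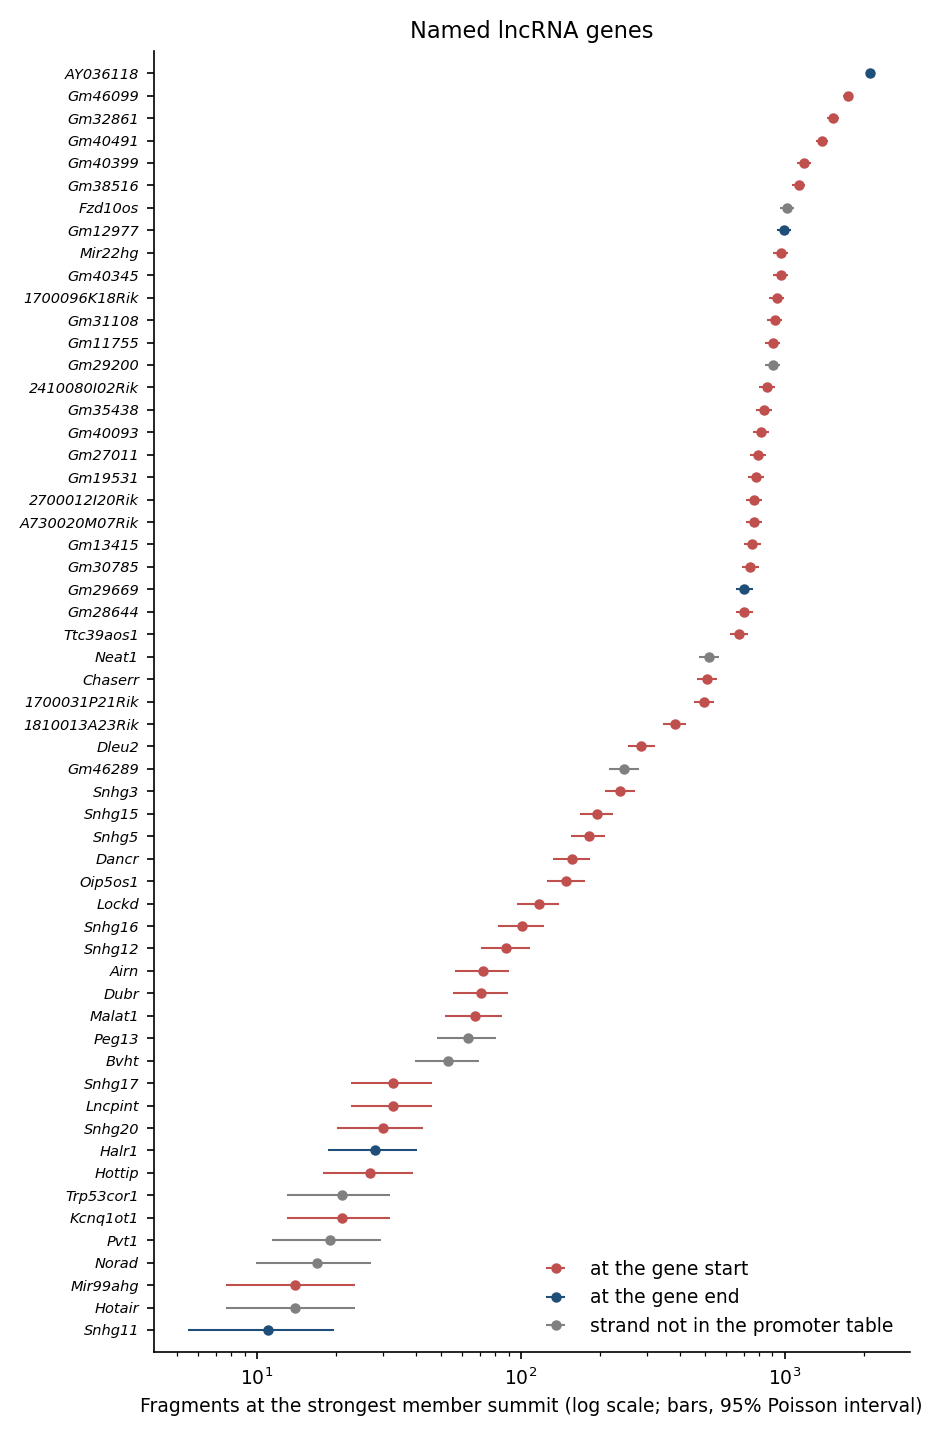
Fragments at the strongest member summit of each named lncRNA gene, on a log axis, with 95% Poisson intervals; red marks a summit at the gene start, blue at the end and grey a gene without a strand in the promoter table. Red points fill most of the upper part, from 2116 fragments at AY036118 (blue) down to 11 at Snhg11 (blue).

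Of the 5 genes with the most members, A730020M07Rik was also among the 25 with the highest folds. The gene 1810013A23Rik (chromosome 17, 28271708 to 28273163), inside Ppard, the fatty acid receptor PPAR delta, had 6 members. Their folds were 92.4, 56.8, 25.3, 16.6, 8.42 and 8.42. The gene is 1456 bp long, so its 2 windows nearly meet. A730020M07Rik, Ttc39aos1, 1700031P21Rik and Gm46289 had 5 each. In Ttc39aos1, which lies inside Ttc39a, the members at the start had folds of 161.9, 30.8 and 13.5, and those at the end 12.03 and 9.86. In 1700031P21Rik both boundaries were strong, with 119.3 and 82.5 at the start and 61.3 and 43.3 at the end. A730020M07Rik had 184.2 at its start and no more than 12.7 at any other member.

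The lncRNA genes on a list of studied ones carried members more often than lncRNA genes in general. That list was chosen with earlier results of these data known, so the contrast only describes the listed genes. Of 67 symbols listed as studied, 64 were in the gene table as lncRNA on these chromosomes and 60 had window bases over 2 kb from protein-coding boundaries. A member was present at 29 of the 60 (48.3%, 36.2 to 60.7), against 20.5% of all such lncRNA genes. The median of their highest folds was 16.4, against 9.38 over all 2461 member genes, and 17 of the 29 had a fold of at least 10 (58.6%, against 47.9% of member genes). Of the 31 without a member, 22 had no summit within 500 bp of a boundary, and 9 had one only within 2 kb of a protein-coding boundary, among them Snhg8 (fold 95.01), Tug1 (87.3), Zfas1 (69.5) and Snhg1 (60.9). The other 4 genes, Gas5, Hotairm1, Haglr and Epb41l4aos, lay too close to protein-coding genes to count, and each had a summit within 500 bp.

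Mir22hg had the highest fold of this list. The gene, the source of miR-22 (chromosome 11, 75461539 to 75466690), had a fold of 233.1 and 968 fragments 38 bp before its start. Dleu2 had a fold of 69.3 and 287 fragments at its start. Mir99ahg had 3.61, and there was no summit within 500 bp of a boundary at Mir17hg, Mir155hg, Mir100hg, Mir124-2hg or Mir9-3hg. By name, 4 of 14 microRNA host genes had a member (28.6%, 11.7 to 54.6), with a median highest fold of 97.3. Beside Mir22hg and Mir99ahg these were Mirc35hg, with a highest fold of 101.5, and Mir205hg, with 93.1, which are not on the studied list and were named after their values were seen. Among snoRNA host genes named Snhg it was 11 of 17 (64.7%, 41.3 to 82.7), with a median highest fold of 21.4. Snhg3 reached 57.5, Snhg15 47.1, Snhg5 43.8, Snhg16 24.5 and Snhg12 21.4, all at their starts, while Snhg17, Snhg20 and Snhg11 had 8.18, 7.46 and 2.89. Dancr, another snoRNA host, had 37.8 at its start. Many snoRNAs from such introns guide the chemical modification of ribosomal RNA.

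The other studied lncRNA genes differed widely. Neat1, the scaffold of paraspeckles on chromosome 19 (5824708 to 5845480), had a fold of 124.6 and 517 fragments (473 to 564) 241 bp above its upper boundary, in a region 17879 bp wide with 37 summits. Its lower boundary had 7.22 and 4.57. The neighbouring Malat1, a nuclear speckle RNA, had 4 members between 10.1 and 16.4. Chaserr, which restrains the chromatin remodeller gene Chd2 next to it, had 122.4 and 508 fragments at its start. Oip5os1, also called Cyrano, had 36.1. Lockd had 28.4, with its summit 3206 bp from the cell cycle inhibitor gene Cdkn1b. Lncpint had 8.18, Trp53cor1, the p53 target lincRNA-p21, had 5.29, Norad 4.33, and Pvt1, beside Myc, 4.81. These 4 lie below the median highest fold of 9.38 over all member genes.

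LncRNA genes of imprinted loci ranged from above that median to no summit. Airn, which silences Igf2r on the paternal allele, had 17.6 at its start, Peg13 15.4 and Kcnq1ot1 5.29. Meg3, Rian, Mirg and H19 had no summit within 500 bp of a boundary. At the Hox loci, the highest member folds were 6.98 at Halr1, 6.73 at Hottip and 3.61 at Hotair. Hottip also had a summit of 18.8 within 500 bp of a boundary that the 2 kb rule left out. Hotairm1 and Haglr, too close to protein-coding genes to hold members, had summits of 27.9 and 12.03. Fendrr, Dlx6os1, Sox2ot and Rmst, which act in embryonic development or neurons, had no summit within 500 bp of a boundary. Bvht and Dubr had 13.0 and 17.3.

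By name class, 19.6% (18.9 to 20.5) of Gm models, 23.7% (21.7 to 25.8) of RIKEN clones, 25.6% (20.0 to 32.2) of opposite strand genes and 16.2% (12.4 to 20.9) of LOC models had a member. A few members adjoined other small RNA genes: 26 lay within 500 bp of a tRNA gene, with a median fold of 12.3, and 7 within 500 bp of a microRNA gene.

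The AP-1 heptamer was more frequent in the promoters of member genes than in those of other lncRNA genes. As the planned measure, 180 of 1875 member genes with a promoter in the table held TGACTCA on either strand (9.6%, 8.35 to 11.0), against 1650 of 31396 of all listed promoters (5.26%, 5.01 to 5.51). The first of these counts a gene with the heptamer in any of its promoters and the other counts single promoters of all gene types, so they are not like for like. Counted by gene, 465 of 7103 other lncRNA genes of the rule, without a member, held it (6.55%, 5.99 to 7.15). With 1 promoter per gene it was 165 of 1816 member genes (9.09%, 7.85 to 10.5) and 410 of 6882 others (5.96%, 5.42 to 6.54), both added after seeing the data. With a summit of fold 10 or more within 500 bp of the start it was 75 of 702 (10.7%, 8.61 to 13.2). The splits that follow, by summit position, fold, gene type and CpG, were chosen after seeing the data and are descriptions. A single promoter per gene, at the outermost start, was read on both strands in 7426 lncRNA genes over 2 kb from protein-coding boundaries. TGACTCA occurred in 6.46% (5.87 to 7.11) of the 6065 without a summit within 500 bp and in 98 of the 758 with a summit inside the 300 bases (12.9%, 10.7 to 15.5). With the strongest summit below a fold of 5 the share was 10.1% (6.196 to 15.9), from 5 to 10 it was 11.1% (7.48 to 16.0), from 10 to 50 it was 13.4% (9.98 to 17.7) and from 50 upward it was 20 of 102 (19.6%, 13.1 to 28.4). Neighbouring steps of this order overlap in their intervals. Of all 18846 promoters, 1 per gene, 5.75% held the heptamer. Most of the 102 strong lncRNA promoters thus lacked it in this window.

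**Figure D4:**
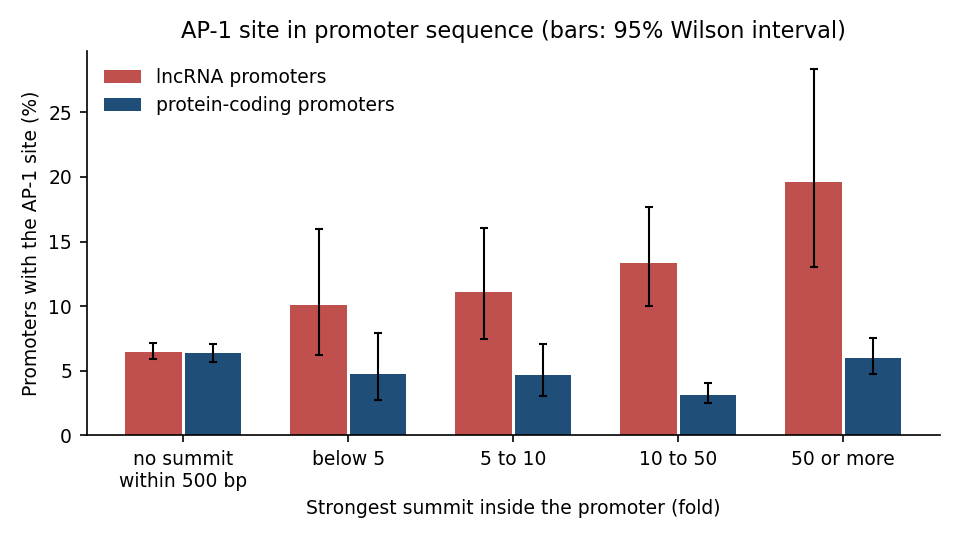
Percent of promoters with TGACTCA on either strand, by the fold of the strongest summit inside the promoter's 300 bases, for lncRNA (red) and protein-coding genes (blue), with 95% Wilson intervals. The red bars go from 6.46% without a summit to 19.6% at folds of 50 or more, and the blue bars stay between 3.16% and 6.36%.

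Protein-coding promoters, taken over all CpG contents, did not show that order. The heptamer was in 6.36% (5.69 to 7.10) of those without a summit within 500 bp, in 4.26% (3.67 to 4.95) of the 3846 with a summit inside, and in 6.004% (4.76 to 7.55) of those with a fold of 50 or more. The promoters with a summit differed in base composition, with a median of 21 CpG in protein-coding and 5 in lncRNA genes. The cAMP response element TGACGTCA was in 11 of 758 lncRNA promoters with a summit (1.45%), in 0.660% of those without, and in 1.70% of all promoters. Over the 4 steps of fold used for the heptamer, it was in 1.34%, 0.962%, 2.34% and 0% (0 to 3.63) of lncRNA promoters. Of the other motifs searched after seeing the data, the GC box GGGGCGGGG was in 5.67% (4.24 to 7.55) of lncRNA promoters with a summit, 1.57% (1.28 to 1.91) of those without and 9.31% of all promoters. The ETS site CCGGAAGT was in 2.11% (1.30 to 3.401), 1.07% (0.842 to 1.36) and 3.20% of them. The GC box, too, was most frequent in lncRNA promoters with the strongest summits. Over the same 4 steps of fold as for the heptamer, it was in 3.36%, 4.81%, 5.02% and 12.7% (7.60 to 20.6). The ETS site was in 2.01%, 1.92%, 2.01% and 2.94% (1.01 to 8.29). In lncRNA promoters with both a summit and the heptamer, the median distance between them was 63.5 bp (interquartile range 37.2 to 110). Of these, 38 of 98 lay within 50 bp (38.8%, 29.7 to 48.7). In protein-coding promoters the median was 73.0 bp, and 55 of 164 lay within 50 bp (33.5%, 26.8 to 41.1). The median fold within and beyond 50 bp was 16.2 and 16.8 in lncRNA promoters, and 51.5 and 32.2 in protein-coding ones. Whether summits centre on the heptamer was not tested.

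CpG content went with the presence of a summit in both kinds of gene. Among lncRNA promoters with 0 to 4 CpG, 12.7% (11.8 to 13.7) had a summit within 500 bp of the start, as did 11.2% (10.2 to 12.2) of such protein-coding promoters. With 15 or more CpG it was 219 of 339 lncRNA promoters (64.6%, 59.4 to 69.5) and 89.1% (88.1 to 90.0) of protein-coding ones. Only 339 of the 7426 lncRNA promoters were of that kind. In between, at 5 to 14 CpG, the gap was widest, at 22.5% (20.9 to 24.2) against 53.1% (51.0 to 55.2). With 0 to 4 CpG, the heptamer was in 11.7% (9.33 to 14.5) of lncRNA promoters with a summit and 6.65% (5.92 to 7.46) of those without. With 5 to 14 CpG it was in 10.3% (8.07 to 13.2) and 6.48% (5.46 to 7.67). At 15 or more CpG, 7 of 219 with a summit held it (3.20%), and 0% of those without, which allows up to 3.10%. Protein-coding promoters with 0 to 4 CpG held it in 11.0% (8.27 to 14.5) with a summit and 7.29% (6.43 to 8.26) without. With 5 to 14 CpG these shares were 6.10% (4.87 to 7.63) and 4.77% (3.62 to 6.25). With 15 or more CpG they were 2.60% (2.13 to 3.16) and 3.55% (2.20 to 5.68).

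**Figure D5:**
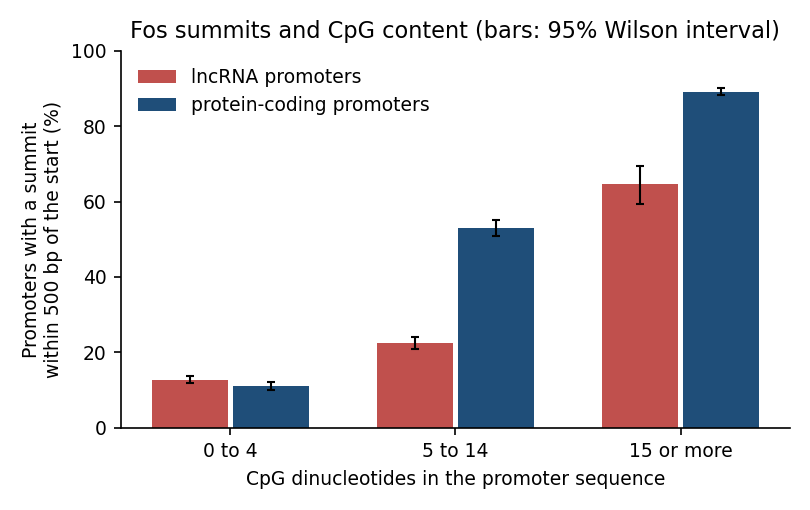
Percent of promoters with a Fos summit within 500 bp of the start, by the number of CpG dinucleotides in the 300 bases, for lncRNA (red) and protein-coding genes (blue), with 95% Wilson intervals. Both rise with CpG; the bars are near each other at 0 to 4 CpG, 12.7% and 11.2%, and apart at 5 to 14 CpG.

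At the edges of the rule the values changed gradually. Summits at 400 to 500 bp from a lncRNA boundary, just inside, numbered 579 with a median fold of 7.22, and those at 501 to 600 bp numbered 624 with 6.73. Summits at lncRNA boundaries 2001 to 2200 bp from a protein-coding boundary numbered 60 with a median of 6.73, and those just excluded, at 1801 to 2000 bp, numbered 62 with 8.90.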

How the data were processed

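CUT&Tag for Fos was performed on 4 libraries of colonic epithelium. The submitters' processing notes name Bowtie2, MACS2 and the build mm10. Versions, settings and which libraries entered the list are not given in the sources used here. What was deposited is 1 list of 178981 summits, and depth per library is unknown. The authors' fold enrichment is a linear ratio over background, their −log10 p-value and −log10 q-value are the caller's, with a lowest −log10 q of 1.80, and the deposited score is 10 times that −log10 q, rounded down. Folds are the authors' own and only describe summits within this list.

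Each fold was a multiple of 0.2405 to within 0.05 steps, as for (pileup + 1) over (background + 1) with a background of 3.16 fragments per base, which gave the fragments per summit. A Poisson −log10 p from them matched the deposited one within 0.01 at 100% of 167414 summits where it could be computed.

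Gene positions came from RefSeq for GRCm38.p6, the assembly of mm10, with 12408 lncRNA and 20665 protein-coding genes on chromosomes 1 to 19; exons were not used. Positions are 1-based. The planned rule for named genes took the 25 lncRNA genes with the highest member fold, the 5 with the most members, studied genes with a member, and values at the limits. Genes of the studied list without a member were named after their values were seen. The start and end windows, the promoter splits by fold and CpG and the GC box and ETS motifs were added after seeing the data. Motifs were matched exactly on both strands. The members and lists were chosen with earlier results of these data known. The matching of summits, pileups and motifs was checked on simulated data. Python 3.11.15, pandas 2.3.3 and scipy 1.17.1 were used. A leukocyte marker of the planned list is not reported here. No list of regions that attract misplaced reads was applied.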

Additional observations from a re-analysis of the deposited data

How the results depend on the processing

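The list has no replicates, so what moved is judged against the counting interval or, for counts, by a factor of 1.5. The 3668 member summits became 2110 and 6529 with lncRNA distances of 250 and 1000 bp, 2414 with −log10 q of at least 10, 2143 with 1 summit per region and 2226 without lncRNA genes that overlap a protein-coding gene, which left 1520 of the 2461 genes. The share of lncRNA genes with a member, 20.5%, was 14.9% and 27.6% at those distances, 22.1% and 19.3% beyond 1 and 5 kb from protein-coding boundaries, 17.4% and 14.3% when −log10 q had to reach 5 and 10, 16.8% with 1 summit per region, 19.2% without regions wider than 3000 bp and 19.5% without overlapping genes. The median fold of 7.94 was 8.90 and 7.22 at 250 and 1000 bp, 10.1 and 13.5 with the q limits, 8.66 with 1 summit per region and 7.46 without wide regions. The share with a fold of at least 10, 42.0%, was then 45.9%, 38.8%, 50.8%, 63.8%, 45.6% and 39.5%. A stricter q removes weak summits by construction. The enrichment over bases was 2.72 and 2.17 at 250 and 1000 bp. The ratio of start to end shares, in settings added after seeing the data, ran from 2.16 without wide regions to 2.92 with windows of 250 bp. The share of promoters of fold 50 or more with TGACTCA was 19.7% over all listed promoters. Without AY036118 the highest member fold was 418.8. Depth per library is unknown, so the lack of a summit is no evidence of absence. No paired analysis was possible because the list has no values per library.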
